A study of Mus musculus with 8 samples.

Results

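Mir191 and Mir425 are a pair of mouse microRNA genes that lie side by side and are made from one primary transcript. They were taken by name from each of the 5 deposited tables, which together list 10822 features. Both genes were in all 5 tables. The tables describe small RNA of 19 to 33 nt along the purification of the chromatoid body from testis of C57BL/6 mice at least 6 weeks old. The chromatoid body is a cytoplasmic granule of RNA and protein in round spermatids, which are haploid germ cells after meiosis. Seminiferous tubule cells, untreated apart from collagenase and formaldehyde cross-linking, gave a lysate, a supernatant and a first and a second pellet. Antibodies to MVH, the germ cell RNA helicase DDX4, then precipitated the granule from the second pellet (MVH IP), and antibodies to acrosin, a protease of the acrosome, served in the control precipitation (ACR IP). Sorted round spermatids carry the label hetMIWI, in which MIWI is the PIWI protein PIWIL1; the labels say nothing more of that genotype, and no wild-type spermatids are among the samples. Each group had 1 library except MVH IP, which had 2. The labels give no animal numbers and do not name separate animals for the libraries.

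A primary microRNA transcript is cut in the nucleus by DROSHA and DGCR8 into hairpins, which DICER cuts in the cytoplasm into duplexes of short RNA. One strand of each duplex is loaded into an Argonaute protein and pairs with target messages mainly through its seed, the bases near its 5′ end. Hairpins of one transcript are made together but are processed, loaded and degraded one by one, so their mature products need not be equally abundant. Both genes are broadly expressed in mammalian tissues.

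In the deposited mm9 coordinates, Mir191 lies on chromosome 9 from 108470650 to 108470723 and is 74 nt long. Mir425 follows from 108471108 to 108471192 and is 85 nt long, which leaves 384 nt between the hairpins. The GENCODE annotation of GRCm38, a later build with other coordinates, places both inside the non-coding gene 4833445I07Rik on the plus strand, at chromosome 9 from 108567533 to 108569174. That gene is tagged as a host of non-coding RNA and lies between Ndufaf3 and Dalrd3. In its spliced transcript Mir191 is intronic. In its unspliced transcript, a single exon, both hairpins are exonic, and Mir425 begins after the spliced transcript ends. The tables list no feature named 4833445I07Rik.

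The mature sequences are shown because they decide which reads can count for each gene. They are RefSeq entries on GRCm38.p6, and capitals mark the seed, bases 2 to 8.
mmu-miR-191-5p: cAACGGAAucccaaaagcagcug
mmu-miR-191-3p: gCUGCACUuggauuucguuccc
mmu-miR-425-5p: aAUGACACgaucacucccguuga
mmu-miR-425-3p: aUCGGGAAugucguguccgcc
The 4 seeds differ from each other. Among 1738 mature mouse entries, 3 of the 4 seeds occur nowhere else, and the seed of miR-425-5p recurs once, in mmu-miR-489-3p. No other gene shares a whole mature sequence with either member, so reads of Mir191 and Mir425 have no second gene in that table to be split with.

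The hairpins are shown because the deposited values are scaled to their lengths. Capitals mark the mature arms, the 5′ arm first.
Mir191: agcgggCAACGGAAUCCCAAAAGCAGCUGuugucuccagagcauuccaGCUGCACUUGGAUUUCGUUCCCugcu
Mir425: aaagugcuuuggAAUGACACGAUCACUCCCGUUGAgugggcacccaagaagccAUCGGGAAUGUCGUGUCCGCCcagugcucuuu
Each table has 1 value per hairpin, so the 5p and 3p products of a gene cannot be told apart in any column below.

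The pair was abundant. In the lysate Mir191 stood at 774034 FPKM (fragment counts adjusted for length and depth, the unit of all 5 tables) and Mir425 at 330312, by the supernatant table. Mir191 was the second and Mir425 the 14th highest of 386 microRNA genes there. They held 3.84% and 1.64% of the microRNA FPKM sum. For the members, the same lysate library is listed 2.39 times higher in the pellet table, at 1850190 and 789554 FPKM. In the ACR IP table they are listed 2.08 times higher, at 1611530 and 687800 FPKM. The factor was within 0.1% of its median for 350 of 353 microRNA genes in the pellet table, but only for 157 of 290 in the ACR IP table. Mir103-1, for example, was listed at 182118 FPKM in the lysate of the supernatant table and at 401 in that of the ACR IP table. FPKM can therefore be compared within a table only, and shares or ratios of the pair were used across tables.

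In the supernatant Mir191 was listed at 881002 and Mir425 at 301804 FPKM. In the pellet column they were listed at 106654 and 52049.5 FPKM, and in the MVH IP column at 304569 and 89479.6. In round spermatids they were listed at 260404 and 53399 FPKM. Mir191 was thus above Mir425 in every one of these columns. In the ACR IP Mir191 was listed at 2163 FPKM and Mir425 at 0.

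Leaving the ACR IP with its few reads aside, 5 columns could be ordered by the members' shares of the microRNA FPKM sum. Mir191 was highest in round spermatids at 5.89% and lowest in MVH IP at 2.91%, with the pellet at 3.94%, the lysate at 3.84% and the supernatant at 3.21% in between. Mir425 was highest in the pellet at 1.92%, followed by the lysate at 1.64%, round spermatids at 1.21%, the supernatant at 1.10% and MVH IP at 0.854%. The members therefore had different orders over the columns. Among the 149 microRNA genes of every table, Mir191 was instead lowest in the supernatant at 3.36%, with MVH IP at 3.70%, while Mir425 remained lowest in MVH IP at 1.09%. Among microRNA genes Mir191 stood 7th in the supernatant, 3rd in the pellet, 5th in MVH IP and 3rd in round spermatids. Mir425 stood 18th, 10th, 18th and 18th. With 1 column per group there is no spread between replicates against which neighbours in these orders could be separated. The tissue held microRNA of more than germ cells. Over all columns, 10 microRNA genes known from male germ cells made up 13.6% to 40.4% of the microRNA FPKM. They were lowest in sorted round spermatids and highest in the lysate column of the ACR IP table. The pellet stood at 37.4% and the lysate of the supernatant table at 31.1%. Another 10, known from blood, vessel wall and Sertoli cells, made up 1.70% (round spermatids) to 12.1% (ACR IP). All 10 of the first list were listed in every table and 8 or 9 of the second. In the ACR IP, Mir449c, Mir463 and Mir881 of the first list and Mir142, Mir144 and Mir150 of the second were at 0, in MVH IP Mir486 and in round spermatids Mir144. The part of cell makeup in the members' shares was not tested, and fewer cells of a type cannot be told apart from less RNA per cell.

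The FPKM values could be turned back into reads. Low values of microRNA genes were whole multiples of a step once each was weighted by an effective length, which counts the positions that fragments of 15 nt or more, drawn from a normal distribution of mean 200 and SD 80 nt, can take on the hairpin. In the ACR IP column, 41 genes with hairpins of 62 to 132 nt in 29 different lengths gave the same value per read to within 0.000884%. The weight falls steeply with length. 1 read on the 74 nt of Mir191 was worth 2163 FPKM in the ACR IP and 1 read on the 85 nt of Mir425 was worth 1389, a ratio of 1.56, where the lengths alone give 1.15. Equal FPKM therefore meant unequal reads, and the deposited FPKM place Mir191 higher against Mir425 than reads do.

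**Figure D1:**
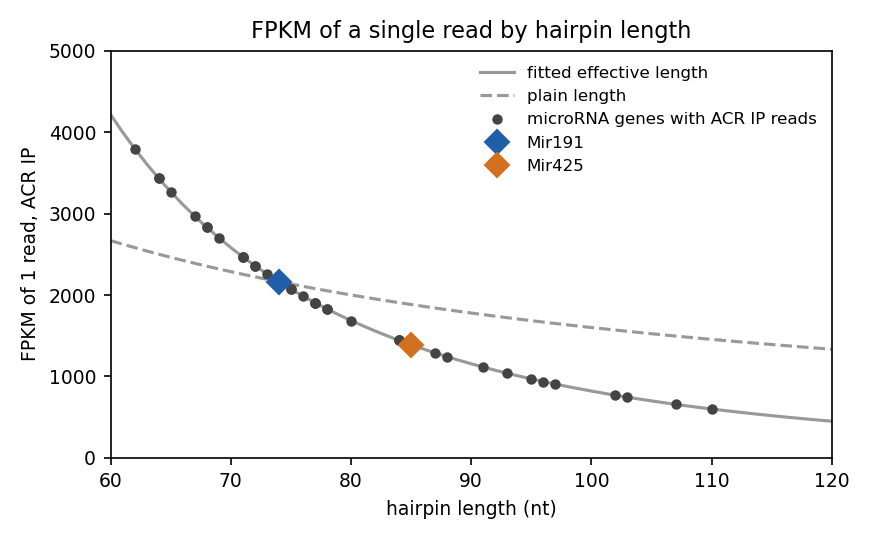
FPKM that a single ACR IP read adds to a hairpin (vertical axis) against hairpin length in nt (horizontal axis). Round points are microRNA genes with ACR IP reads, diamonds are Mir191 and Mir425, the solid line is the fitted effective length and the dashed line plain length scaled to meet it at 74 nt. The points follow the solid line, with Mir191 at 2163 and Mir425 at 1389 FPKM per read.

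By this rule the lysate held 7451 reads of Mir191 and 4953 of Mir425, and the supernatant 12713 and 6784. Round spermatids held 1678 and 536 reads. The ACR IP held 1 read of Mir191 and none of Mir425. These are the smallest whole numbers the values allow, and they ignore reads shared between genes. In the MVH IP column 38 of 43 low values were sums of multiples of 2 steps, as from 2 libraries of different depth, against 4 with the steps moved by 1%. For each member 1 split came within 0.000133 of a small step, and the next best was at least 0.00779 away. The library with the smaller step held 65 reads of Mir191 and 43 of Mir425, and the library with the larger step 30 and 7. The labels do not say which of them is which replicate. The pellet column also followed 2 steps (26 of 33 low values, against 0 with the steps moved by 1%), but the members' values there are too large to split. Its totals lie between 1043 and 1396 reads for Mir191 and between 793 and 1061 for Mir425.

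**Figure D2:**
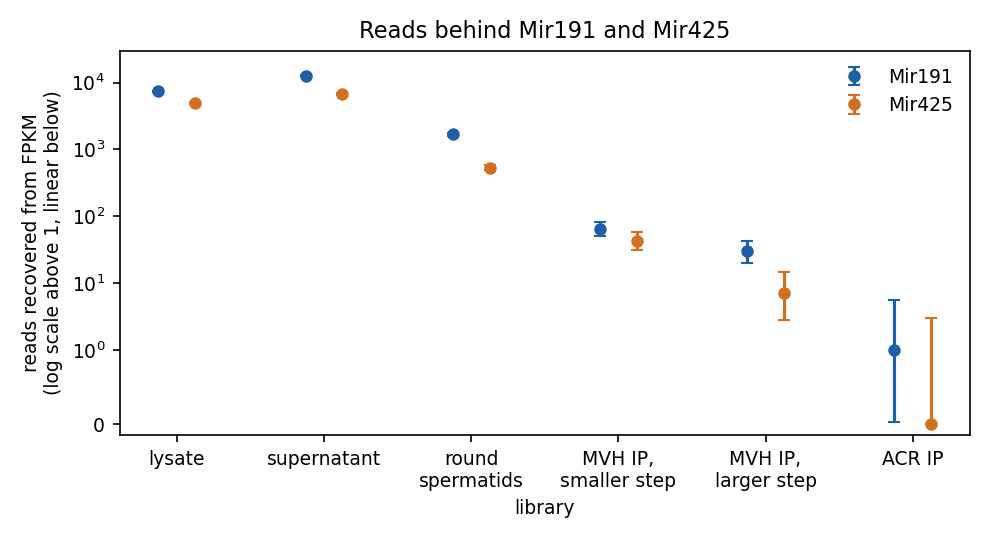
Reads of Mir191 (blue) and Mir425 (orange) recovered from FPKM in 6 libraries, on an axis that is logarithmic above 1 and linear below, with exact Poisson 95% intervals as bars and, for the count of 0, a bar up to the limit of 3 reads. The lysate and supernatant hold 4953 to 12713 reads, the MVH IP libraries 7 to 65 and the ACR IP 1 and 0.

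In a column of 1 library, the ratio of the members does not depend on how the column was scaled. In the pellet and MVH IP columns, which follow 2 steps, it also rests on how the 2 libraries were weighted against each other. In FPKM, Mir191 exceeded Mir425 by 2.05-fold in the pellet, 2.34-fold in the lysate, 2.92-fold in the supernatant, 3.40-fold in MVH IP and 4.88-fold in round spermatids. In read equivalents, which are FPKM weighted by effective length, the same order held. The ratio ran from 1.32 in the pellet through 1.504 in the lysate, 1.87 in the supernatant and 2.19 in MVH IP to 3.13 in round spermatids. The pellet and MVH IP values are not ratios of read numbers. In recovered reads the MVH IP libraries gave 1.51 (smaller step) and 4.29 (larger step), so the place of MVH IP in the order is uncertain. Both scales keep the order because the weight of a hairpin is the same in every column.

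As a share of the pair's reads, Mir191 made up 60.1% in the lysate (95% Clopper-Pearson interval 59.2% to 60.9%). It made up 65.2% in the supernatant (64.5% to 65.9%) and 75.8% in round spermatids (73.95% to 77.6%). These 3 intervals do not overlap, but they cover counting error only, as do all intervals given here. The MVH IP libraries gave 60.2% (50.3% to 69.5%, 108 reads) and 81.1% (64.8% to 92.0%, 37 reads). They are the only replicates of one group, and they lie 20.9 percentage points apart with overlapping intervals. That distance is larger than the 5.14 points between supernatant and lysate and the 15.7 points between round spermatids and lysate, but with 108 and 37 reads it includes much counting error and gives no replicate spread for the deeper libraries. The differences between those have no replicate check. The pellet column gave 56.8% of read equivalents, with no read number for an interval.

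**Figure D3:**
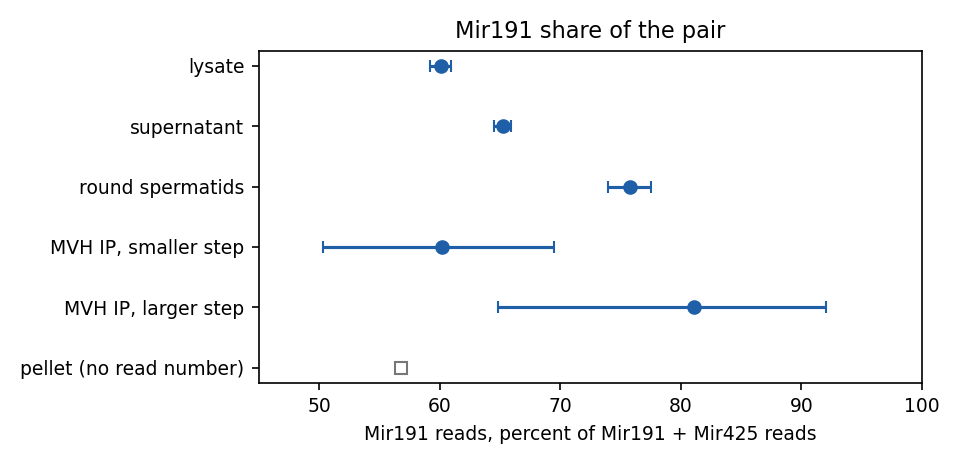
Mir191 as a percent of the reads of Mir191 and Mir425 together (horizontal axis, from 45) in each library (vertical axis). Filled points have 95% Clopper-Pearson intervals; the open square is the pellet column, from read equivalents with no interval. The lysate at 60.1%, supernatant at 65.2% and round spermatids at 75.8% have intervals that do not overlap, and the MVH IP libraries at 60.2% and 81.1% have wide ones.

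The supernatant was compared with the lysate to show what stayed in solution after the first spin. Mir191 was 1.14-fold higher in the supernatant (log2 ratio 0.19, on FPKM with a pseudocount of 1) and Mir425 1.09-fold lower (log2 ratio -0.13). Neither was 2-fold changed, as were 12.6% of the 4999 features measured. In the authors' deposited table Mir191 was called changed, with a q-value listed at 0, and Mir425 was not, with a q-value of 2.71e-05. All 129 features called in the authors' deposited table have a q-value listed at 0, and 309 others are not called despite a q-value below 0.05. Higher calls in the authors' deposited table cover 0.942% of all features and 10.9% of microRNA genes, and lower calls 1.59% of all features.

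The SE implied by the authors' deposited table for the log2 ratio was 0.021 for Mir191 and 0.027 for Mir425. Counting error of the recovered reads alone gives 0.021 and 0.027. For the members in the supernatant comparison, the deposited q-values thus weigh counting error and hold no spread between libraries. The members' values in the pellet could not be split into reads, so the same check was not made there. With the fewest reads allowed, counting intervals of the pellet log2 ratios were -4.21 to -4.02 (Mir191) and -4.03 to -3.81 (Mir425). The implied SEs there, 0.072 and 0.084, are wider than these intervals give. The supernatant result therefore does not carry over to the pellet. In the supernatant, the direction for Mir191 also rests on the scale. The median microRNA gene had a log2 ratio of 0.21, against which Mir191 was at -0.020 and Mir425 at -0.34. Against the median of the 338 microRNA genes above 0 in both columns they were at 0.027 and -0.29, and as shares of the microRNA FPKM sum the log2 ratios were -0.26 and -0.57. Mir425 was below Mir191 on each scale, since the difference between them is the change of the pair's ratio.

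The pellet was compared with the lysate to show what the spin brought down. The labels tie both pellets to the pellet table without saying which the column holds, so it is given as the authors' value with no n. Mir191 was 17.3-fold lower in the pellet column (log2 ratio -4.12, implied SE 0.072) and Mir425 15.2-fold lower (-3.92, implied SE 0.084). Both are called lower in the authors' deposited table, with q-values listed at 0, as are 18.7% of all features and 34.7% of microRNA genes there. A fall of 2-fold or more was general: 86.5% of 3005 features and 93.4% of 363 microRNA genes showed it.

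Within that general fall the members fell less than most microRNA genes. The median microRNA gene had a log2 ratio of -4.65, with quartiles of -5.90 and -3.52, and Mir191 lay 0.54 above that median and Mir425 0.73 above. That median includes 74 microRNA genes listed at 0 in the pellet. Against the 279 above 0 in both columns, whose median was -4.39, Mir191 lay 0.27 and Mir425 0.46 above. Of the 363 microRNA genes, 231 had a lower ratio than Mir191 and 244 a lower ratio than Mir425. As shares of the microRNA FPKM sum the log2 ratios turned to 0.038 and 0.23. Mir425 thus had a higher ratio to the lysate than Mir191 in the pellet column, the reverse of the supernatant. The pair's log2 ratio differed by 0.19 between pellet and lysate. The implied SEs of the members' ratios were 0.072 and 0.084, and there is no replicate check.

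**Figure D4:**
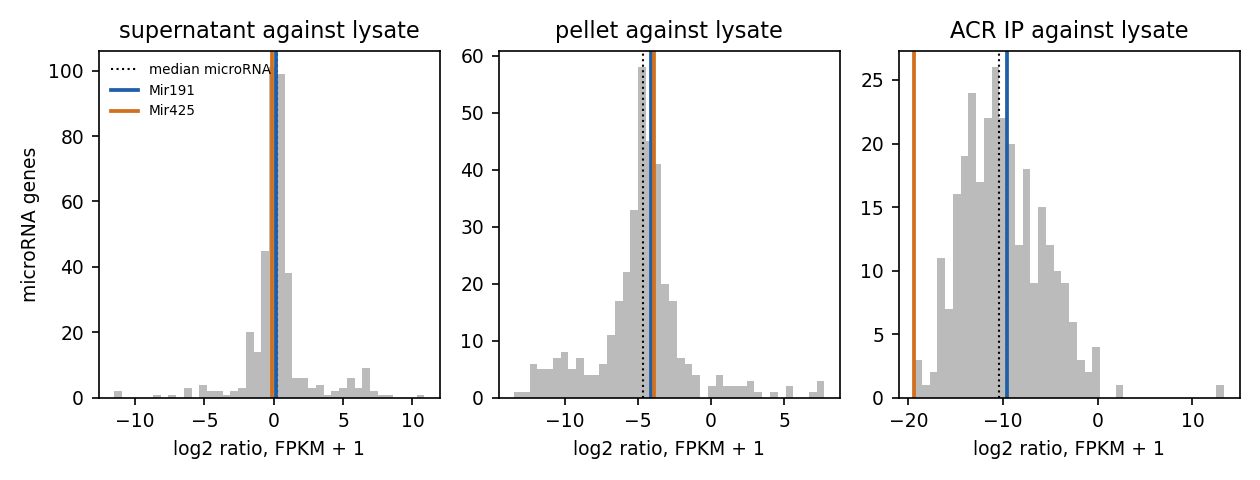
Numbers of microRNA genes (vertical axis) by log2 ratio of fraction to lysate FPKM with a pseudocount of 1 (horizontal axis) in the supernatant, pellet and ACR IP tables. The dotted line is the median microRNA gene, blue is Mir191 and orange Mir425. The members lie near the median in the supernatant, above it in the pellet at -4.12 and -3.92, and apart in the ACR IP, where Mir425 is listed at 0.

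The ACR IP is the control precipitation, and it was shallow. Its table has a lysate column marked only as such, while the lysate's own label names the supernatant and pellet tables. For many microRNA genes that column is not a rescaled copy of the other lysate columns. The ratios, medians and neighbours below hold for that column only. Of 2539 features, 59.0% were at least 2-fold lower and 36.4% at least 2-fold higher than in the lysate, and of 292 microRNA genes 97.6% were lower. Mir191 had 1 read against 7450 in the lysate column of that table, which on the FPKM scale is 745-fold lower, with a counting interval of 134 to 29426. Mir425 had none against 4953, which with 3 reads as the limit for a count of 0 is at least 165-fold lower. On the counting interval used for Mir191 the bound for Mir425 is 134-fold, the same as for Mir191. The log2 ratios of -9.54 and -19.39 with a pseudocount look far apart, yet the difference between them rests on 1 read against none. Of the 71 microRNA genes above 0 in both columns, none had a lower ratio than Mir191, and their median was -4.70; in a column this shallow, a gene had to gain at least 1 read to be among them.

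The listed zero of Mir425 stands out for its level in the lysate column of the ACR IP table. Of 221 microRNA genes listed at 0 in the ACR IP, Mir425 had the highest value in that column. Of 22 with a single read, Mir191 had the highest. The rank of Mir425 rests on that column. By the lysate of the supernatant table, Mir16-1 (647258 FPKM) and Mir16-2 (576949), also at 0 in the ACR IP, exceeded Mir425 (330312). Mir16-1 and Mir16-2 are numbered copies, and in the lysate column of the ACR IP table they were listed at only 92041 and 25111 FPKM. Their zeros in that table are therefore not on equal terms with that of Mir425. Over all 265 microRNA genes with a known hairpin length, the ACR IP held 285 reads, or 16.3 per 10000 lysate reads. At that ratio Mir191 would have 12.1 reads and Mir425 8.08. Without Mir34c, the highest microRNA gene of the lysate, the numbers are 13.8 and 9.17.

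The genes next to the members in lysate level show the same contrast. The 5 above and below each member, 15 genes in all and 14 with a known length, had 1 to 41 ACR IP reads. Mir34c, a germ cell microRNA, had 41 and Mir449a, of the same seed family, 20. Mir143, a microRNA of smooth muscle, had 10, and Mir375 and Mir202 had 1 each. Per 10000 lysate reads the 14 genes ran from 3.83 (Mir375) to 71.7 (Mir143), with a median of 15.0. Mir191 stood at 1.34, with a counting limit of 7.48. The limit for Mir425 was 6.06, set from 3 reads and so not on the same interval. Both members were below all 14, and 4 of the 14 (Mir375, Mir34b, Mir202 and Mir741) lay under each limit. The members were thus at the low end of their neighbours and not separable in this depth from the lowest of them.

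The MVH IP table has no lysate column, and the 65, 43, 30 and 7 reads recovered there set the precision. The ACR IP share of the microRNA FPKM was 0.405% for Mir191 and the MVH IP share 2.91%. These shares come from tables normalized separately, and the ACR IP value is 1 read. For Mir425 they were 0 and 0.854%.

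The change of the pair's ratio was set beside that of other microRNA pairs of one transcript. Of 41 pairs in the list, this one included, 23 others had a ratio in lysate, supernatant, pellet, MVH IP and round spermatids. Some pairs were lost to names or lengths and not to missing values. Mir18a of the list is named Mir18 in the tables, and Mir15a had no known hairpin length. The counts below leave such pairs out. In read equivalents, the log2 ratio of Mir191 to Mir425 spanned 1.25 over the 5 columns. It spanned less in 2 of the other pairs and more in 21, with a median of 2.99. The smallest span was 0.60, for Mir30b and Mir30d, and the largest 7.98, for Mir200c and Mir141, of the miR-200 family of epithelia. Among 20 other pairs with at least 100 lysate reads for each member, 2 spanned less and 18 more. Among the 14 of these not marked as sharing a mature sequence with another gene, 1 spanned less and 13 more. The 14 include Mir100 and Mirlet7a-2. Mirlet7a-2 has a numbered copy, Mirlet7a-1, with a near-equal log2 ratio in the supernatant (0.575 and 0.574). The 14 may therefore not all be free of shared reads.

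The columns did not contribute alike. From lysate to pellet the pair's log2 ratio moved by 0.19, less than in 22 of the 23 other pairs, whose median was 0.66. From lysate to the joint MVH IP column it moved by 0.54, more than in 13 of the 23. That value joins unlike libraries: the move was 0.0070 in the one with the smaller step and 1.51 in the one with the larger step, so its place among the pairs rests on which is used. From lysate to round spermatids it moved by 1.06, less than in 18 of the 23, whose median was 1.86. Round spermatids were the end of the span for the member pair, as the plot of pair ratios shows. These counts are a description with no test, and pairs of few reads span more by counting error alone. The pairs are also not independent, as some genes recur in several of them. Mir106b, Mir93 and Mir25 were paired with each other, and Mir99b with both Mir125a and Mirlet7e.

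**Figure D5:**
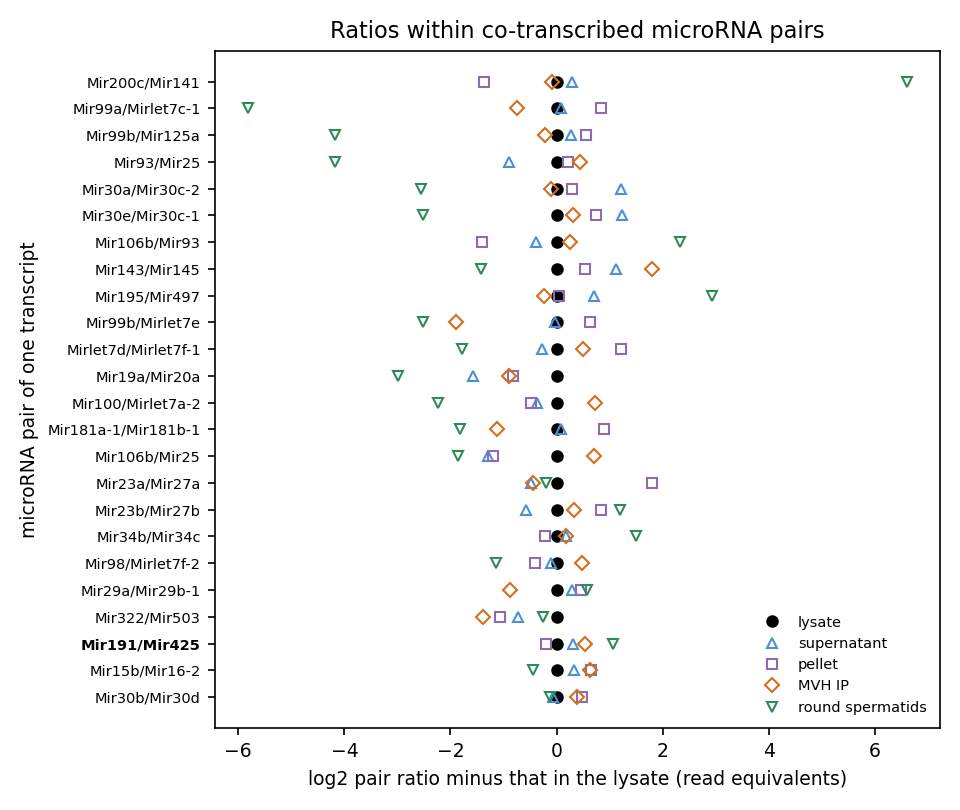
Log2 ratio of the first to the second microRNA of each co-transcribed pair, in read equivalents, minus that in the lysate (horizontal axis), for 24 pairs ordered by span (vertical axis). Symbols are the 5 columns. Mir191/Mir425, in bold, has the third smallest span, 1.25, with round spermatids farthest from the lysate.

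The microRNA genes with the most similar profiles differed between the members. The profile was the log2 share of the microRNA FPKM sum over the same 5 columns, centred on its mean, and likeness was the Euclidean distance over 163 microRNA genes above 0 in all 5. The nearest to Mir191 were Mir741 (distance 0.37), Mir183, Mir30d, Mir18 and Mir296, and the nearest to Mir425 were Mir3074-1 (0.45), Mir30b, Mir3074-2, Mir24-2 and Mir18. Mir425 was the 20th nearest to Mir191 and Mir191 the 15th nearest to Mir425, at a distance of 0.98, where the median gene was at 2.29 and 2.09. Mir3074-1, Mir3074-2 and Mir24-2 lie at loci with overlapping hairpins or copies, so their values are uncertain. The nearest genes depended on the columns: leaving out round spermatids or MVH IP kept 1 of the 5 for each member.

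Small RNA on the surrounding genes was scarce. Ndufaf3, which encodes a mitochondrial complex I assembly factor and lies upstream on the other strand, was listed at 9.80 FPKM in the lysate, 6.34 in the supernatant and 27.3 in round spermatids. Its log2 ratio to the lysate was -0.56 in the supernatant, -2.46 in the pellet and -2.47 in the ACR IP. Dalrd3, downstream, was listed in the ACR IP table at 6.47 FPKM against 1.62 in the lysate, and at 14.5 FPKM in MVH IP. Of 10 neighbouring genes, 4 were measured in the supernatant table with 0 past 2-fold, against 12.6% of all features. The pellet table had 1, Ndufaf3, which was lower, and 2 were measured in the ACR IP, Ndufaf3 lower and Dalrd3 higher (log2 ratio 1.51). Of 22 names of microRNA makers and effectors, 8 were measured in the supernatant table, also with 0 past 2-fold. Their median log2 ratio there was 0.10, against 0.02 over all features. In the pellet 5 of 6 measured were at least 2-fold lower, close to the 86.5% of all features, with a median of -2.03 against -2.20 over all features. Among them Dgcr8, the partner of DROSHA, had a log2 ratio of -2.43 and Eif2c2, which encodes Argonaute 2, -2.07. In the ACR IP 2 were measured, and both were at least 2-fold lower, as were 59.0% of all features. They were Dgcr8 (log2 ratio -2.26) and Eif2c2 (-6.08, listed at 0). These are small RNA fragments that map to the genes and do not measure their messages.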

How the data were processed

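Small RNA of 19 to 33 nt was sequenced in 8 libraries of 7 groups. TopHat, Cuffdiff and the mm9 build are named in the submitters' processing notes. Not given in the sources used here are their versions, the annotation and the handling of multiply mapped reads. The authors deposited 5 tables of FPKM values, a unit named in the header of the round spermatid table and taken from column names and values for the others. Deposited p-values and q-values, and the deposited test statistic and log2 fold columns, which were carried as a score because they hold placeholder values, are the authors' own. 1 column of long RNA was not used.

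Values were computed with Python 3.11.15, pandas 2.3.3 and scipy 1.17.1 and drawn with matplotlib 3.10.9. Log2 ratios used FPKM + 1 within a table, where 1 of the columns reached at least 1 FPKM, so they understate changes of low features; called means at least 2-fold. Groups with 1 column each allow no test, and differences compare libraries. Read steps were found from low values of hairpins of up to 150 nt. The tolerance was 0.02 steps for columns with 1 step. It was 0.3% of the smaller step for sums of 2 steps (pellet and MVH IP). Within these, 78.8% (pellet) to 100% (both columns of the ACR IP table) of low values were whole. On simulated data, 100% of reads were recovered for 1 library and 98.8% to 100% for 2, over 205 genes in 5 draws each. The simulation used the same effective lengths as the recovery and no shared reads. It thus checks the search for steps and cannot test the effective length. Total depth is not in the tables. The implied SE is the authors' log2 ratio divided by the test statistic. microRNA lengths are those of the deposited loci, and 167 of 171 short loci with a RefSeq hairpin had its length.

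The members, the gene and pair lists and the rule for named genes (both members; their 5 nearest profiles; the 5 genes above and below each by lysate level; the pairs of smallest and largest span; neighbouring genes) were chosen with earlier results of these data known. The host 4833445I07Rik was added to the neighbours after the annotation was read. Alternatives were other pseudocounts, scalings, filters and columns. The read recovery, the reads of each MVH IP library, 3 reads in place of 0, the median of microRNA genes above 0 in both columns and shares of read equivalents were chosen after seeing the data.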

Additional observations from a re-analysis of the deposited data

How the results depend on the processing

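Pseudocounts of 0.1 and 100 left the members' ratios within their counting intervals, except Mir425 in the ACR IP, listed at 0, whose log2 ratio was -22.71 with 0.1. Relative to the median microRNA gene, Mir191 turned to -0.020 in the supernatant, 0.54 in the pellet and 0.86 in the ACR IP, and Mir425 to 0.73 in the pellet and moved to -0.34 in the supernatant. Listed zeros pull these medians down. Against microRNA genes above 0 in both columns, an alternative chosen after seeing the data, Mir191 moved to 0.027 in the supernatant and -4.84 in the ACR IP and turned to 0.27 in the pellet, and Mir425 moved to -0.29 in the supernatant and turned to 0.46 in the pellet. As microRNA shares, Mir191 turned to -0.26 (supernatant) and 0.038 (pellet) and moved to -3.63 (ACR IP); Mir425 turned to 0.23 (pellet) and moved to -0.57 (supernatant). Relative to the median of all features, Mir191 moved to -1.92 (pellet) and -6.84 (ACR IP) and Mir425 to -1.73 (pellet). These shifts follow from the scalings' construction.

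Features 2-fold changed numbered 629 in the supernatant and 2423 in the ACR IP, and 210 and 1129 among features above 0 in both columns, where fewer are tested. The MVH IP share of Mir191 moved from 2.91% to 3.80% without Mir34c, 3.70% among microRNA genes of every table and 2.32% in read equivalents. In round spermatids Mir191 moved from 5.89% to 5.44% of all FPKM, 6.35% among those genes and 5.28% in read equivalents, and Mir425 from 1.21% to 1.69% in read equivalents.

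The log2 FPKM ratio of the pair, 1.23 in the lysate, 1.55 in the supernatant, 1.03 in the pellet and 2.29 in round spermatids, moved to 1.03, 1.35, 0.84 and 2.09 when multiplied by length, and to 0.59, 0.91, 0.40 and 1.65 in read equivalents. In MVH IP it moved from 1.77 to 1.13 in read equivalents and to 0.60 in the reads of the library with the smaller step, with 2.10 in the other. Mir191 stayed above Mir425 in each of these.

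No paired analysis was possible because each comparison has 1 column per group and no test. Leaving out a replicate was not possible from the deposited columns, as both MVH IP libraries share 1. The ACR IP and MVH IP read numbers limit what can be separated there.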
